A study of Mus musculus with 119 samples.

Results

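The 9 genes described here mark medium spiny neurons, the projection neurons that make up most of the striatum: Ppp1r1b, Arpp21, Gpr6, Rasd2, Rasgrp2, Rarb, Ankrd63, Sh3rf2 and Serpina9. They were taken by symbol, as 9 of the 55291 gene rows in the deposited count tables, and all 9 were among the 18932 genes that passed the low-count filter over the 20 groups of the study. Levels are given as CPM, counts scaled to library size by the TMM method over all 119 libraries.

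Medium spiny neurons receive glutamate input from the cortex and amygdala and dopamine input from the midbrain, and send inhibitory projections out of the striatum by a direct and an indirect pathway. Dopamine and adenosine receptors on these cells raise or lower cyclic AMP, and the phosphoprotein encoded by Ppp1r1b turns that signal into inhibition of a protein phosphatase. They fill the dorsal striatum and the nucleus accumbens, are present in parts of the amygdala, and are not a cell type of the cortex or the ventral midbrain.

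The study asked what exposure to delta-9-tetrahydrocannabinol (THC), the main psychoactive compound of cannabis, during adolescence leaves behind in behavior and in the brain. Female and male mice were injected intraperitoneally each day from postnatal day 28 to 48 with vehicle or with 10 mg/kg of THC, and behavioral tests began on postnatal day 63. The sample labels give the strain as C57BL/6J and the age as 11 weeks, while the methods of the study name C57BL/6NCrl mice and a later week of collection, and no group carried an engineered allele. Punches of amygdala (Amy), nucleus accumbens (NAc), prefrontal cortex (PFC), ventral tegmental area (VTA) and dorsal medial striatum (DMS) were sequenced as polyA-selected RNA, 1 library a punch, with 6 libraries in each of the 20 groups of region, sex and treatment apart from the male vehicle VTA, which had 5. The tissue label of the DMS punches reads dorsolateral striatum although their titles read DMS, so DMS is used here as the name in the titles.

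Libraries held 3090998 to 77042133 counts, with a median of 22092612. PFC libraries were even in depth, at 20299010 to 25470245 counts, and DMS libraries held 17826631 to 24702752. Depth ran from 12091765 to 40235601 counts in the NAc, from 8713204 to 76111373 in the Amy and from 3090998 to 77042133 in the VTA. Median depth differed between treatment groups in the Amy, at 26933795.5 counts with vehicle and 44472649.5 with THC in females and at 28362507.5 and 12766415 in males, and by less in the male VTA, at 38582253 and 30226860, and in the male NAc, at 17991814 and 22100637.5. Of the markers of single regions, Slc17a7, the vesicular glutamate transporter of cortical projection neurons, averaged 1903 ± 76.9 CPM in the PFC (SD, n = 24), and Th, the enzyme that starts dopamine synthesis, averaged 623 ± 174 CPM in the VTA (SD, n = 23).

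Several libraries stood apart from others of their region or went against their labels. Library FTL_344, labelled female Amy with THC, held 0.293 CPM of the X-inactivation transcript Xist and 139 CPM summed over Y-linked genes, and library FTL_356, labelled male Amy with THC, held 489 CPM of Xist and 0.371 CPM of Y-linked transcripts. Each thus had the transcripts of the label of the other, and both were kept as labelled. In all, 59 of 60 libraries labelled female and 58 of 59 labelled male had the transcripts of their label. Female vehicle Amy library FTL_338 held 237 CPM of Xist, where the other 10 female Amy libraries with that transcript held 482 to 611 CPM, and the lowest Ankrd63 of the Amy. PFC library FTL_264 (female, vehicle) was the highest of 24 PFC libraries in 7 of the 9 genes, and Amy library FTL_352 (male, THC) was the highest of 24 Amy libraries in all 9. PFC library FTL_272 (female, THC) was second highest in Ppp1r1b and lowest in Ankrd63, Arpp21 and Rasgrp2. DMS library FTL_301 (male, vehicle) was the lowest DMS library in all 9 genes, and NAc library FTL_325 (male, vehicle) was the lowest NAc library in 8 of 9, while NAc library FTL_331 (male, THC) was the highest of 24 in all 9. DMS library FTL_285 (female, vehicle) held 290 CPM over the list of 8 cortical and basolateral projection neuron genes, against 13.2 to 40.2 CPM in the other 23 DMS libraries.

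Every gene was most abundant in the DMS and second in the NAc. Since the genes were chosen as striatal markers, that order is a description and was given no test. Ppp1r1b, whose product is the dopamine and cyclic AMP regulated phosphatase inhibitor, ranged from 2085 to 3423 CPM in the 24 DMS libraries with a median of 2981. It ranged from 751 to 1710 CPM in the NAc with a median of 1180.2, and from 73.5 to 819 CPM in the Amy with a median of 209. PFC libraries held 72.4 to 201 CPM of Ppp1r1b and VTA libraries 38.8 to 66.4 CPM. The ranges of the DMS and the NAc did not overlap, whereas those of the NAc and the Amy met because of library FTL_352, without which the highest Amy library was at 467 CPM.

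Arpp21, which encodes another cyclic AMP regulated phosphoprotein, averaged 1988 ± 183.3 CPM in the DMS, 1023 ± 165 CPM in the NAc, 382 ± 24.5 CPM in the PFC, 271.4 ± 75.1 CPM in the Amy and 59.2 ± 17.7 CPM in the VTA (SD, n = 24 a region and 23 in the VTA, here and below). It was the member with the most cortical RNA relative to striatum, at 19.2% of the DMS level. Gpr6, an orphan receptor that raises cyclic AMP and is found on indirect pathway neurons, averaged 117 ± 13.05 CPM in DMS libraries and 70.9 ± 13.6 CPM in NAc libraries. Outside the striatum Gpr6 was scarce, at 8.95 ± 6.14 CPM in the Amy, 2.04 ± 1.02 CPM in VTA libraries and 1.62 ± 1.13 CPM in PFC libraries, and the last 2 levels lay within 1 SD of each other.

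Rasd2 and Rasgrp2, both genes of small GTPase signaling, had far lower levels in the NAc than in the DMS. Rasd2, a Ras-like GTPase also known as Rhes, averaged 869 ± 106 CPM in the DMS but 263.4 ± 50.7 CPM in the NAc, with 88.0 ± 23.6 CPM in the Amy, 61.4 ± 6.46 CPM in PFC and 59.4 ± 8.92 CPM in VTA libraries. Rasgrp2, an exchange factor that activates Rap in response to calcium and diacylglycerol, averaged 302.1 ± 35.1 CPM in DMS and 91.5 ± 14.3 CPM in NAc libraries. It was the only one of the 9 with more RNA in the VTA than in the Amy, at 50.9 ± 5.14 and 35.5 ± 10.4 CPM, and its PFC level was 14.0 ± 2.07 CPM.

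Rarb, the retinoic acid receptor beta, averaged 164 ± 16.2 CPM in the DMS, 118 ± 17.2 CPM in the NAc, 13.1 ± 5.95 CPM in the Amy, 8.99 ± 1.41 CPM in the PFC and 8.04 ± 0.970 CPM in the VTA. Ankrd63, an ankyrin repeat protein, was nearly level between DMS and NAc at 225 ± 17.0 and 206 ± 27.7 CPM, held 81.4 ± 22.996 CPM in the Amy and 27.6 ± 4.43 CPM in the PFC, and was close to absent from the VTA at 0.293 ± 0.321 CPM, with 2 of 23 libraries at 0, which allows up to 0.0927 and 0.255 CPM there. Sh3rf2, a RING-finger protein, averaged 71.5 ± 12.9 CPM in the DMS, 19.1 ± 4.05 CPM in the NAc and 4.38 ± 4.09 CPM in the Amy. It was at 0 in 3 of 24 PFC libraries and in 7 of 23 VTA libraries, where a count of 0 allows a level of up to 0.139 to 0.156 CPM and 0.0772 to 0.895 CPM by library (3 counts, counting error only). Serpina9, of the serine protease inhibitor family, averaged 69.0 ± 7.12 CPM in the DMS, 48.5 ± 10.1 CPM in the NAc, 2.17 ± 1.03 CPM in the Amy, 1.21 ± 0.847 CPM in the PFC and 0.436 ± 0.208 CPM in the VTA, where it was at 0 in 1 library, which allows up to 0.895 CPM there.

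**Figure D1:**
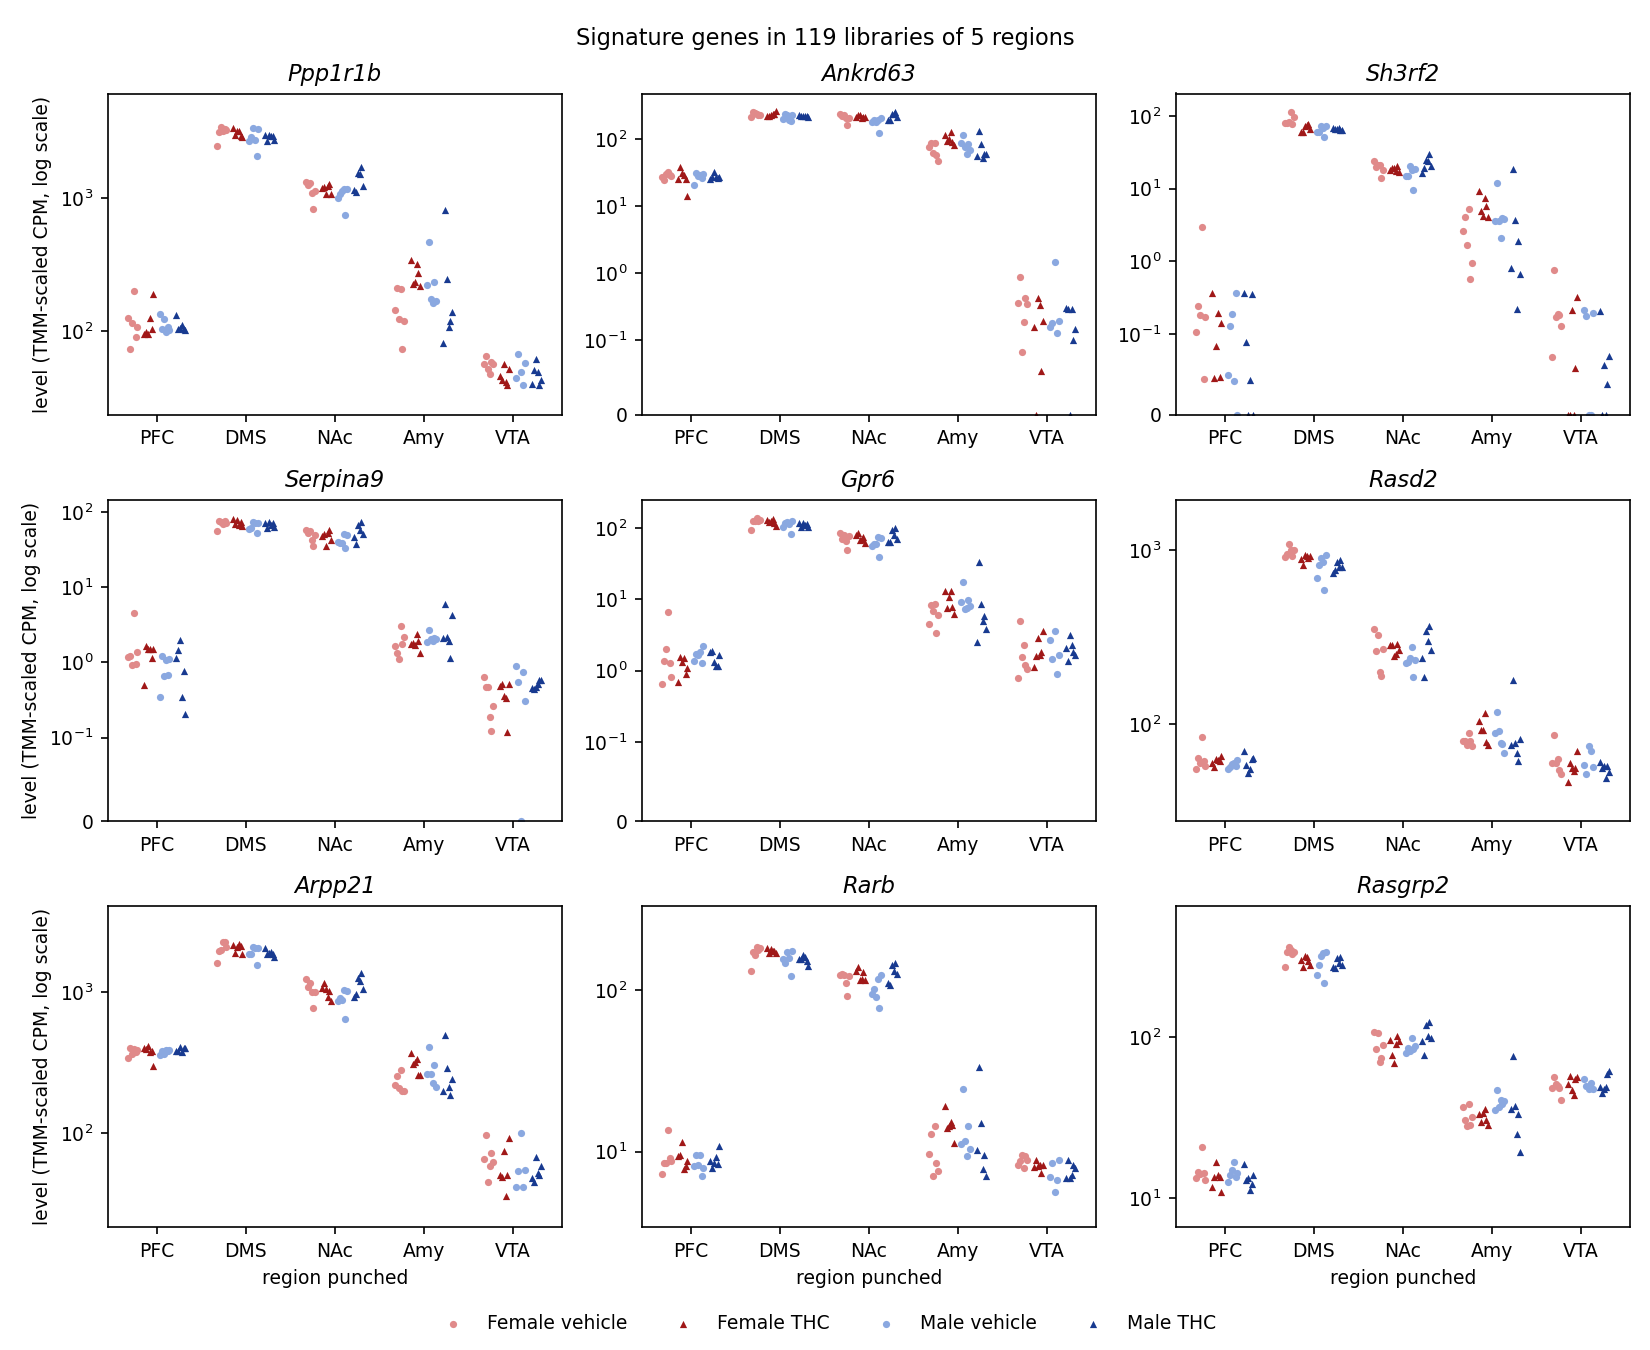
Level of each of the 9 genes in all 119 libraries by region, in CPM on a log axis, with 1 point a library. DMS points lie highest in most panels, NAc points reach among them for Ankrd63, Gpr6, Serpina9 and Rarb, and single libraries such as PFC library FTL_264 and Amy library FTL_352 sit above the rest of their region.

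Counts rise with transcript length, so genes were compared with each other only as CPM per kilobase of exon. On that scale Ppp1r1b stood far above the other members in the DMS, at 1024 ± 109 CPM per kb, followed by Rasd2 at 273.7 ± 33.4 and Arpp21 at 114 ± 10.5. Gpr6 (65.5 ± 7.31), Ankrd63 (46.3 ± 3.49) and Rarb (31.1 ± 3.09 CPM per kb) were intermediate. Rasgrp2, Serpina9 and Sh3rf2 were lowest in the DMS, at 24.4 ± 2.83, 18.8 ± 1.94 and 12.7 ± 2.29 CPM per kb. The first 3 places were the same in the NAc, at 408 ± 70.6, 83.0 ± 16.0 and 58.7 ± 9.47 CPM per kb, with Ankrd63 ahead of Gpr6 there at 42.4 ± 5.71 and 39.7 ± 7.62, a difference within 1 SD.

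Since the members moved together across regions, the start regions of their genes were read for elements through which cyclic AMP and retinoic acid are known to act. RefSeq start regions on GRCm38.p6, from 250 bases before to 50 after an annotated start, were matched by symbol for 6 of the 9 genes with 15 entries, and none was matched for Ppp1r1b, Sh3rf2 and Serpina9. These 4 sets of letters were searched on both strands: TGACGTCA, the cyclic AMP response element, its shorter form TGACG, which lies within it, and AGGTCA and AGTTCA, forms of the arm bound by nuclear receptors including retinoic acid receptors. Of 32851 start regions of the same length, 1.79% held TGACGTCA, 20.8% TGACG, 16.3% AGGTCA and 14.0% AGTTCA. Gpr6 (chr10:41072241-41072540, minus strand) held TGACGTCA from base -78 counted from the start, and Rarb (chr14:16575427-16575726, minus strand) held AGTTCA from base -42. Of 9 entries for Arpp21, 3 held TGACG and 1 of these AGGTCA also, and the 2 entries for Rasgrp2 held none. Rasd2 (chr8:75213694-75213993, plus strand), the small GTPase with a steep regional difference, and Ankrd63 (chr2:118703914-118704213, minus strand), which was nearly level between the striatal regions, held none of these letters in this window. The start regions of Gpr6, Rarb, Rasd2 and Ankrd63 are printed 5′ to 3′ on the strand of the gene, with the matched letters in capitals. A match is a description of letters and says nothing of whether a factor binds there.
Gpr6: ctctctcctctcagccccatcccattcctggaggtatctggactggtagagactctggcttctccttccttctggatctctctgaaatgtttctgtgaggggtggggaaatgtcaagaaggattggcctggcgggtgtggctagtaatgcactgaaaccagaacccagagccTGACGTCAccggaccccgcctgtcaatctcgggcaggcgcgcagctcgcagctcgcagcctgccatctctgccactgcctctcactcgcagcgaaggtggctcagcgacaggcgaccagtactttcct
Rarb: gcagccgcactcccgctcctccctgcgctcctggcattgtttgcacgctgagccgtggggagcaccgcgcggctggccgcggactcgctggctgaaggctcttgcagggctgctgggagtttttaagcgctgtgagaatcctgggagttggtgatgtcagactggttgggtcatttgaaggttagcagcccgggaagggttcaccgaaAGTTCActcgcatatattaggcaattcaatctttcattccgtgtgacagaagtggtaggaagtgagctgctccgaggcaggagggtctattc
Rasd2: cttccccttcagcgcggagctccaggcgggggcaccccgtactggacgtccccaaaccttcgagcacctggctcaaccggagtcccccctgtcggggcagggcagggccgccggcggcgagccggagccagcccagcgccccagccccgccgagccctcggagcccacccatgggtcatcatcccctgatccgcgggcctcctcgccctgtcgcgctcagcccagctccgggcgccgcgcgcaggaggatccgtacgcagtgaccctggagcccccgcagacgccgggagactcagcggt
Ankrd63: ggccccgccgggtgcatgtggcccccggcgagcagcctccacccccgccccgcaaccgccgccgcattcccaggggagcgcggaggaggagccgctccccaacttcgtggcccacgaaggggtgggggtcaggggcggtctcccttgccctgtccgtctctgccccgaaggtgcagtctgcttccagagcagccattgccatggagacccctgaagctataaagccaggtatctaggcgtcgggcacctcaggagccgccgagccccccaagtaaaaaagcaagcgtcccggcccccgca

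Genes outside the 9 whose levels followed theirs most closely were found by Pearson correlation with the mean standardized log2 CPM of the members. Over the 119 libraries, which mainly separates regions, these were Gng7 (r = 0.993), Pde10a (0.991), Gpr52 (0.990), Rgs9 (0.990) and Pde7b (0.989), which encode a G protein subunit, a cyclic nucleotide phosphodiesterase, an orphan receptor, a G protein regulator and a second phosphodiesterase. Within the Amy, after group means were removed, genes among the closest were Rgs9 (r = 0.988), Pde1b (0.984), Lrrc10b (0.981) and Nexn (0.974) over 24 libraries, of which library FTL_352 was highest in all members. Within the PFC, treated the same way, they were Lrrc10b (r = 0.897), Penk (0.886), Lhx8, Gm48057 and Gm19757 (0.877 each). The last 3 were at 0 in 23 of 24 PFC libraries and had 0.290, 0.0966 and 0.0483 CPM in FTL_264 alone, so that their correlations mark that library. The points share library depth and dissection, and these correlations are descriptions.

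Each member also had its own closest gene over the 20 group means. Lingo3 was closest to Ppp1r1b (r = 0.997), Dph6 to Arpp21 (0.996), Gm36737 to Gpr6 (0.995), Gpx6 to Rasd2 (0.996) and Limch1 to Rasgrp2 (0.991). For Rarb it was Gprin3 (0.994), for Ankrd63 Dbn1 (0.996), for Serpina9 Mchr1 (0.993) and for Sh3rf2 the adenosine receptor gene Adora2a (0.995). Between the 36 pairs of members, within a region and across its libraries, the median correlation was 0.862 in the NAc, 0.802 in the Amy, 0.669 in the DMS, 0.357 in the PFC and 0.217 in the VTA. Without library FTL_352 the Amy median was 0.631, and without library FTL_264 the PFC median was 0.0958.

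Both the DMS and the NAc are striatum, and vehicle libraries of the regions (12 each) were compared with sex as a covariate. The choice of the genes was not independent of these data, so the p-values between regions are descriptions. Punches of different regions came from the same mice, which the labels do not identify, so the fits take all libraries as independent and their errors and p-values do not account for shared animals, here and for the Amy. A gene was called when its edgeR quasi-likelihood adjusted p was below 0.05 and its log2 fold change at least 0.4 in size. The DMS and NAc libraries were deposited in different tables, so that region and table cannot be told apart in any of these values. By this rule 8 of 9 members were higher in the DMS than in the NAc, where 30.4% of the 16534 genes tested were called and 2142 genes were called higher in the DMS. The median log2 difference of the members was 1.02, against -0.01 for all genes tested. In bulk tissue, more cells of a type and more RNA per cell cannot be told apart.

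Sh3rf2 differed most between the striatal regions. Its vehicle levels ran from 51.2 to 112 CPM in the DMS (median 74.2) and from 9.56 to 24.2 CPM in the NAc (median 18.2), with no overlap. The log2 difference was 2.05 (SE 0.10), a 4.14-fold higher level (edgeR adjusted p = 2.31e-14). Rasd2 ran from 587 to 1077 CPM in the DMS (median 912) and from 186 to 351.7 CPM in the NAc (median 237), a log2 difference of 1.81 (SE 0.09). Rasgrp2 ran from 216 to 363.2 CPM (median 329.1) against 69.7 to 108 CPM (median 85.5), a log2 difference of 1.802 (SE 0.08). Groups did not overlap in either of these genes, and the folds were 3.50 and 3.49. Lack of overlap between these regions is a description, here and below. Its share over all genes was not counted, and 30.4% of all genes tested were called.

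Ppp1r1b ran from 2085 to 3423 CPM in vehicle DMS libraries (median 3194) and from 751 to 1318 CPM in the NAc (median 1133), a log2 difference of 1.42 (SE 0.08, edgeR adjusted p = 1.61e-13). Arpp21 was 2.03-fold higher in the DMS, with 1565 to 2292 CPM against 643 to 1252 CPM and a log2 difference of 1.02 (SE 0.08). Neither gene overlapped between the regions. Gpr6 (log2 difference 0.82, SE 0.09), Serpina9 (0.56, SE 0.08) and Rarb (0.56, SE 0.07) were called with smaller differences, and in each of these genes the ranges of the regions overlapped, with the lowest DMS library, FTL_301, below the highest NAc library. Ankrd63 was not called, with 188 to 250 CPM in the DMS and 124 to 233 CPM in the NAc, because its log2 difference of 0.18 (SE 0.07, edgeR adjusted p = 0.0172) was below the size threshold. In the 12 THC libraries of each region the log2 difference of Rarb was 0.39, below the threshold, and 7 members were called.

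Other striatal genes also differed between the regions. Of 23 genes of dopamine, adenosine, cyclic AMP and phosphatase signaling around DARPP-32, the Ppp1r1b product, 15 rose in the DMS and 1 fell, with a median log2 difference of 0.74. Those that rose included the dopamine receptors Drd1 (0.92) and Drd2 (1.11), the adenosine receptor Adora2a (1.26), the cyclase Adcy5 (0.83) and the phosphodiesterase Pde10a (1.37). Among 8 other medium spiny neuron genes 6 rose, with Lrrc10b (1.99) and Scn4b (1.98) foremost, and Foxp2 fell by 0.41 on the log2 scale. Indirect pathway genes rose in 4 of 5, while direct pathway genes were mixed, with 4 of 7 higher, among them Ebf1 (1.45), and the opioid precursor Pdyn (-1.48) and Isl1 (-0.47) lower. Paralogs of the members showed no common direction, with 4 called higher and 3 lower of 13 and a median of 0.01, and retinoid signaling genes were called higher in 6 and lower in 6 of 16, with Rara lower (-1.27) where Rarb was higher.

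Markers of other cell types were called as well, beside 30.4% of all genes tested in this comparison. Several of the counts below lie near that share. The part of these cell types in the differences of the members was not tested. Oligodendrocyte markers were called higher in the DMS in 5 of 6, with a median log2 difference of 0.62, microglial markers in 2 of 5, endothelial markers in 2 of 4 and cholinergic markers in 2 of 4 with 1 lower. Central amygdala markers were lower in 3 of 4 (median -2.35), interneuron markers in 3 of 6 with 1 higher, astrocyte markers in 2 of 5, choroid plexus markers in both tested and intercalated cell markers in both. Of the remaining lists, 1 of 5 cortical, 1 of 2 hypothalamic and 1 of 3 dopaminergic markers were lower in the DMS.

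**Figure D2:**
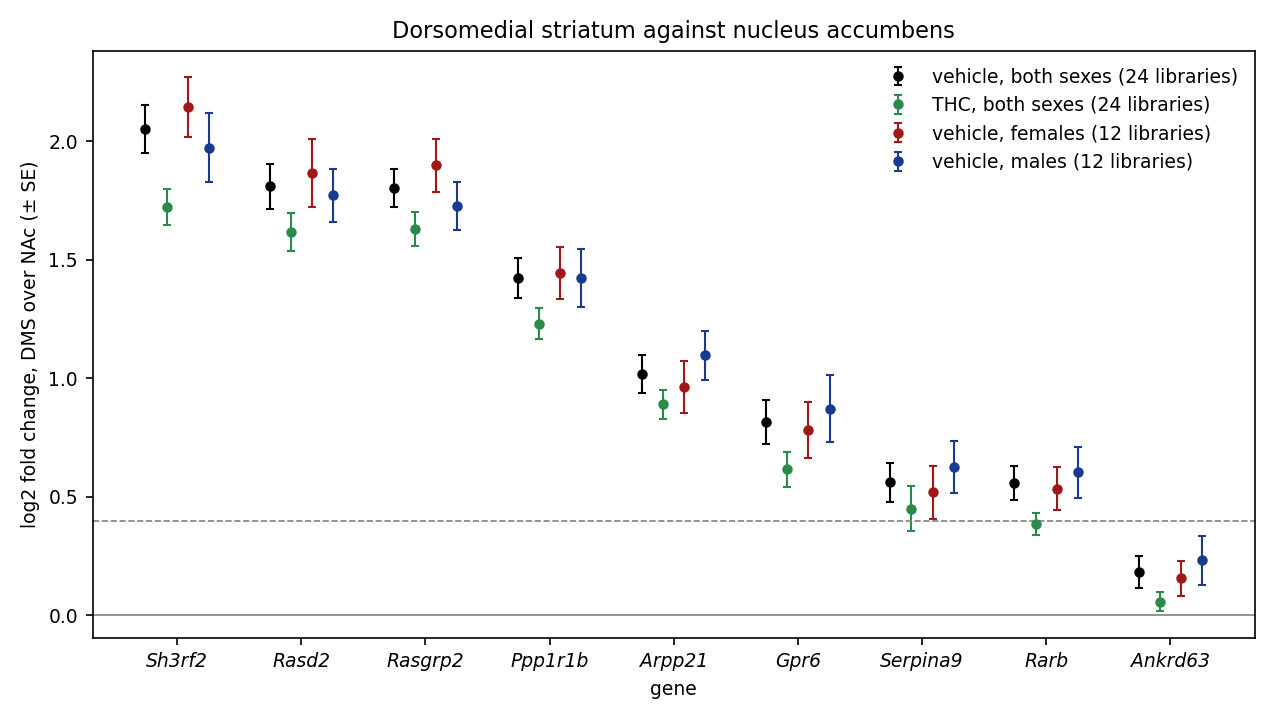
Log2 difference of each of the 9 genes between the DMS and the NAc with its standard error, from edgeR. Points are drawn for the 12 vehicle libraries of each region, for the 12 THC libraries of each region, and for vehicle libraries of females only and of males only. With vehicle and both sexes, Sh3rf2, Rasd2 and Rasgrp2 show the widest difference and Ankrd63 the narrowest, at 2.05, 1.81, 1.802 and 0.18.

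Comparisons with the Amy were made only to describe size, since the genes were chosen for the striatum. All 9 were called higher in the NAc than in the Amy, where 24.4% of 16713 genes tested were called and 11.9% were called higher in the NAc, and all 9 were called higher in the DMS than in the Amy, where 42.2% of 16754 genes were called and 19.8% were called higher in the DMS. Median log2 differences of the members were 2.32 and 3.79. Levels in the Amy were uneven between libraries, from 73.5 to 819 CPM for Ppp1r1b and from 0.224 to 18.5 CPM for Sh3rf2.

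In the PFC, the mean level of Arpp21 was 19.2% of its DMS mean, and those of the other members were 0.363% (Sh3rf2) to 12.3% (Ankrd63). Most of the genes were highest in library FTL_264. Serpina9 stood at 4.59 CPM in that library, against 0.209 to 1.98 CPM in the other 23 (median 1.13). Gpr6 stood at 6.57 CPM against 0.646 to 2.18 CPM (median 1.34). Sh3rf2 stood at 2.95 CPM, from 61 counts, where no other PFC library held more than 8 counts and the others had a median of 0.108 CPM. Ppp1r1b (201 CPM, others 72.4 to 189), Rarb (13.6 CPM, others 7.12 to 11.5), Rasd2 (85.1 CPM, others 52.5 to 70.7) and Rasgrp2 (20.9 CPM, others 11.0 to 16.9) were highest in it as well. Ankrd63 at 31.8 CPM was the third highest of 24, and Arpp21 at 395 CPM was within the range of the others.

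Set against the mean DMS level of each gene, the amount by which library FTL_264 exceeded the median of the other PFC libraries was 5.01% for Serpina9, 4.47% for Gpr6, 3.97% for Sh3rf2, 3.25% for Ppp1r1b, 3.11% for Rarb, 2.85% for Rasd2, 2.39% for Rasgrp2, 2.03% for Ankrd63 and 0.611% for Arpp21. Other striatal lists were high in the same library. Its 5 indirect pathway genes summed to 129 CPM against 30.4 to 49.4 CPM in the others, its 7 direct pathway genes to 98.3 CPM against 57.0 to 68.6 CPM, and its 8 other medium spiny neuron genes to 757 CPM against 505 to 613 CPM. Cholinergic markers summed to 4.20 CPM against 0.991 to 1.90 CPM, with Slc5a7 the most abundant in the PFC and Lhx8 at 0 in all PFC libraries but this one. Oligodendrocyte markers, led by Mbp, summed to 4137 CPM against 1622 to 3547 CPM, while cortical markers, led by Slc17a7, summed to 2465 CPM, the second lowest, where the others ran from 2424 to 2788 CPM. The part of these cell types in the levels of the members was not tested.

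PFC library FTL_272 had a different pattern. Ppp1r1b stood at 189 CPM in it, whereas Ankrd63 (14.3 CPM) and Arpp21 (297.9 CPM) were the lowest of 24 and Gpr6 and Sh3rf2 were inside the range of the others. Its cortical list summed to 2788 CPM, the highest of the PFC libraries.

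**Figure D3:**
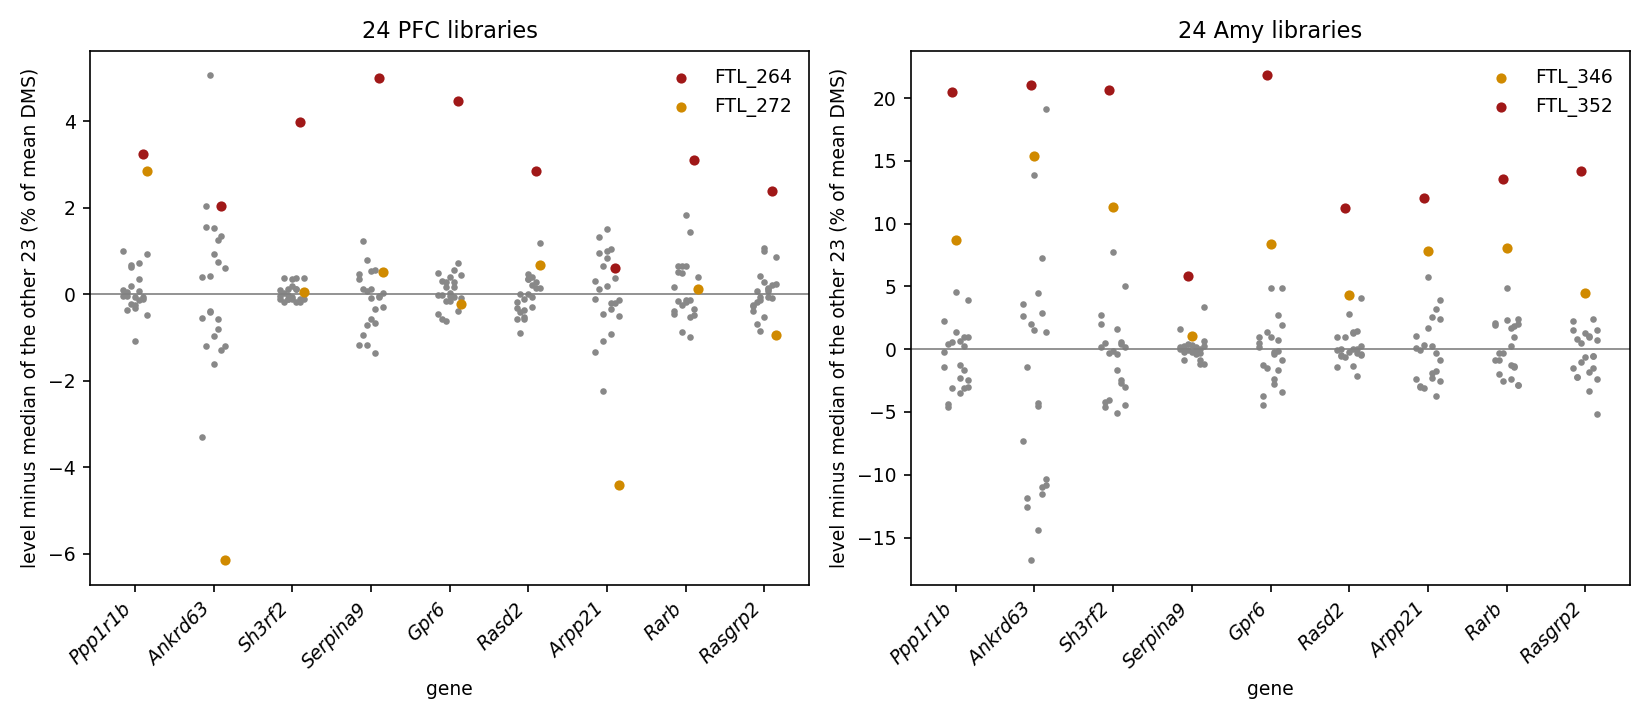
Excess of each gene in PFC libraries over the median of the other 23, as a percent of its mean DMS level. Library FTL_264 stands above the others in most genes, at 2.03 to 5.01% for 8 of them, and at 0.611% for Arpp21.

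All 9 members were highest in Amy library FTL_352, and as a percent of the DMS level their excess was larger than in PFC library FTL_264. Ppp1r1b stood at 819 CPM against 73.5 to 467 CPM in the other 23 Amy libraries, an excess over their median of 20.5% of the DMS level. The excess was 21.0% for Ankrd63, 20.7% for Sh3rf2, 21.8% for Gpr6, 14.2% for Rasgrp2, 13.6% for Rarb, 12.04% for Arpp21, 11.3% for Rasd2 and 5.80% for Serpina9. In that library indirect pathway genes summed to 1299 CPM against 290 to 939 CPM, direct pathway genes to 389 CPM against 133 to 270 CPM and cholinergic markers to 108 CPM against 3.81 to 78.4 CPM. Cortical and basolateral projection neuron markers summed to 414 CPM, the second lowest, where the others ran from 394 to 1310 CPM, and the part of these cells was not tested.

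THC and vehicle were compared within each region and sex. By edgeR, 1 member was called in 1 of the 10 groups, Arpp21 in the female Amy, where 1.57% of 17003 genes tested were called. No member was called in the other 9. Of all genes tested, the share called was 0.0127% in the female DMS (2 of 15800) and 0% in each of the rest: 15904 genes in the female PFC, 15936 in the male PFC, 16093 in the male DMS, 16428 in the female NAc, 15932 in the male NAc, 15321 in the male Amy, 15747 for female VTA and 17103 for male VTA libraries. Members tested were 9 in the DMS, NAc and Amy, 8 in the PFC, where Sh3rf2 did not pass the filter, 6 in female VTA and 7 in male VTA libraries. At an unadjusted p below 0.05, members were higher with THC in 7 of 9 in the female Amy and 8 of 9 in the male NAc, lower in 3 of 9 in the female DMS and 1 of 6 in the female VTA, and 0 in the other 6 groups. With the 4 groups of a region in 1 fit, these counts were 2 of 9 in the female Amy, 8 of 9 in the male NAc, 1 of 9 in the female DMS and 1 of 7 in the female VTA, beside 10.6%, 8.84%, 5.41% and 4.47% of all genes in the same direction. DESeq2 called 4 members in the female Amy, among 546 genes in all, and 0 in the other 9 groups.

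**Figure D4:**
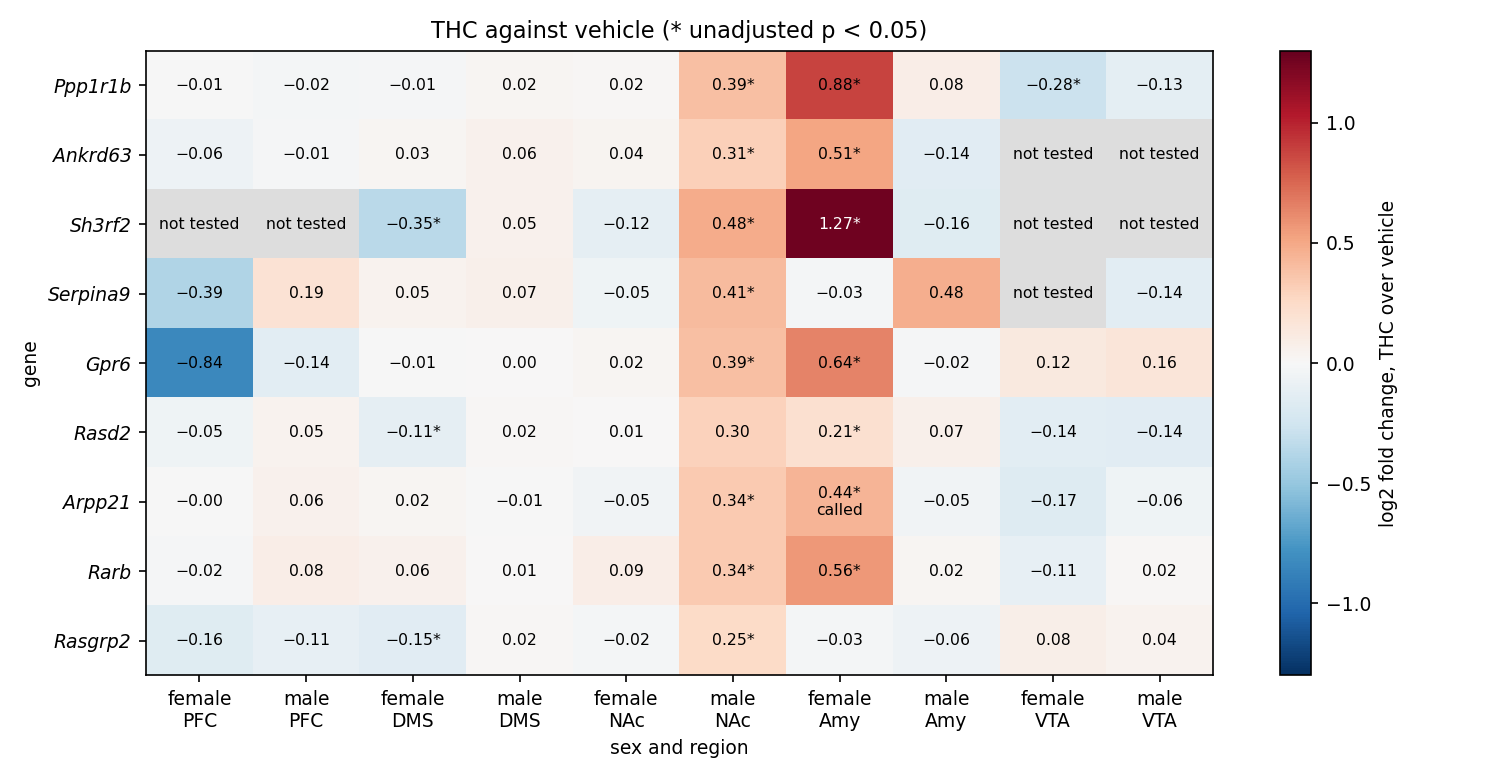
Log2 fold change of each gene with THC against vehicle in the 10 groups of region and sex, from edgeR. Asterisks mark an unadjusted p below 0.05, and the only call, Arpp21 in the female Amy at 0.44, is written in its cell.

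In the female Amy, 7 of the 9 genes were higher with THC at an unadjusted edgeR p below 0.05, beside 10.8% of all genes. Of these only Arpp21 passed the adjusted test. Arpp21 ran from 198 to 278.5 CPM in the 6 vehicle libraries (median 215) and from 257 to 370.8 CPM in the 6 THC libraries (median 313.9). The groups overlapped, with 4 THC libraries above all vehicle libraries. Its log2 fold change was 0.44 (SE 0.11, edgeR adjusted p = 0.0443). Without library FTL_344, whose transcripts were of the other sex, it was 0.49 (adjusted p = 0.0482). With FTL_344 and FTL_356 grouped by their transcripts, a fit chosen after seeing the data, it was 0.43 (adjusted p = 0.0736) and 0 members were called, with 5 at an unadjusted p below 0.05 beside 10.7% of all genes higher. The call was absent in 9 of 12 fits that left out 1 library, the one without FTL_338 among them (adjusted p = 0.0569), with adjusted p from 0.0292 to 0.121 and log2 fold changes from 0.38 to 0.49, and also when the 4 Amy groups were fitted together (edgeR adjusted p = 0.2005).

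Ppp1r1b ran from 73.5 to 212 CPM with vehicle (median 133) and from 217 to 342.3 CPM with THC (median 254) in females. The groups as labelled did not overlap, as for 2.86% of all genes with THC above vehicle, yet the log2 fold change of 0.88 (SE 0.22) missed the threshold in edgeR (adjusted p = 0.0552) and passed it in DESeq2 (adjusted p = 0.00223). The lowest THC library was FTL_344, and FTL_356, with female transcripts, held 139 CPM, inside the vehicle range. FTL_356 also had the highest cortical and the lowest central amygdala sum of the Amy, at 1310 and 43.8 CPM, whose part was not tested. Grouped by transcripts, the log2 fold change was 0.81 (edgeR adjusted p = 0.136). Ankrd63 ran from 47.2 to 88.4 CPM (median 68.3) and from 81.9 to 125 CPM (median 95.2), a log2 fold change of 0.51 (SE 0.15, edgeR adjusted p = 0.0819). Sh3rf2 ran from 0.580 to 5.15 CPM (median 2.16) and from 4.10 to 9.28 CPM (median 5.29), a log2 fold change of 1.27 (SE 0.42, edgeR adjusted p = 0.115). Both of these genes overlapped between the groups.

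Rarb had a log2 fold change of 0.56 (edgeR adjusted p = 0.0891), Gpr6 of 0.64 (adjusted p = 0.149) and Rasd2 of 0.21 (adjusted p = 0.196). DESeq2 called Ankrd63 (adjusted p = 0.0194), Arpp21 (adjusted p = 0.00393) and Rarb (adjusted p = 0.0258) in addition to Ppp1r1b. Serpina9 and Rasgrp2 were level between the groups, both with a log2 fold change of -0.03. The median of the 9 was 0.51, against -0.01 over all genes tested, of which 1830 were higher and 1894 lower at an unadjusted p below 0.05.

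Neighboring lists were compared in the same libraries. Of the 8 cortical and basolateral projection neuron genes, Slc17a7 (0.76), Tbr1 (0.94) and Neurod6 (0.83) rose and 0 fell, with a median log2 fold change of 0.62. Their sum ran from 555 to 822 CPM with vehicle (median 627) and from 877 to 1223 CPM with THC (median 1132), without overlap. Slc17a7 was the most abundant of them in the Amy, at a mean of 637 CPM, and none was at 0 across Amy libraries. Of 6 hypothalamic and medial amygdala genes tested, 0 were called by edgeR, with a median of -1.23. At an unadjusted p below 0.05, 4 of them were lower, beside 11.1% of all genes. Their sum ran from 16.3 to 36.5 CPM with vehicle (median 26.8) and from 10.1 to 17.8 CPM with THC (median 14.7), led by Trh at a mean of 6.10 CPM. Median depth was also higher in the THC group, as given above, and the part of these cell types and of depth in the member levels was not tested.

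Among medium spiny neuron genes in the female Amy, Foxp1 (0.63) and Bcl11b (0.42) rose of 8 others, Pde1b (0.42) of 23 in the DARPP-32 list, Chrm4 (0.41) of 7 in the direct pathway list and 0 of 5 in the indirect pathway list, whose median was 0.53. Rasgrp1 (0.83) rose of 13 paralogs of the members and Cyp26b1 (0.85), which degrades retinoic acid, of 16 retinoid genes. Nts (-0.61) fell of 4 central amygdala markers, Lhx6 (-0.48) of 6 interneuron markers and Th (-0.64) of 3 dopaminergic markers. No oligodendrocyte (median -0.48 over 6), astrocyte (-0.19 over 5), microglial (-0.05 over 5), endothelial (0.01 over 4), choroid plexus (1.18 over 3), cholinergic (0.05 over 4) or intercalated cell marker (-0.07 over 2) was called by edgeR there. Choroid plexus markers summed to 3536 CPM in THC library FTL_343 and 2209 CPM in THC library FTL_344, against an Amy median of 22.9 CPM.

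Male Amy libraries gave no call, and their values moved with single libraries: FTL_352, vehicle library FTL_346 and FTL_356, whose transcripts were of the other sex. Library FTL_356 also had the highest cortical and interneuron sums of the Amy, at 1310 and 755 CPM. Its oligodendrocyte and central amygdala sums were the lowest, at 1567 and 43.8 CPM, and the part of these cells was not tested. Ppp1r1b ran from 162 to 467 CPM with vehicle (median 198) and from 81.3 to 819 CPM with THC (median 129), with a log2 fold change of 0.08 (SE 0.57) in edgeR. Without library FTL_352 it was -0.78 (SE 0.34, adjusted p = 0.980), Sh3rf2 went from -0.16 to -1.66, Gpr6 from -0.02 to -0.95, Rasgrp2 from -0.06 to -0.39 and Rarb from 0.02 to -0.46. Without FTL_356 in its place, Ppp1r1b was at 0.21, Sh3rf2 at 0.0742, Gpr6 at 0.16 and Rasgrp2 at 0.0789. Without FTL_346, Ppp1r1b was at 0.39 and Sh3rf2 at 0.37, and without FTL_346 and FTL_352, a pair chosen after seeing the data, at -0.47 and -1.14, with 3 members lower at an unadjusted p below 0.05 beside 1.11% of all genes. In the fit without FTL_352, 5 members were lower at an unadjusted p below 0.05, beside 1.86% of all genes, and 0 were called. That library, the highest of the Amy in every member, was left out after seeing the data. Leaving it out lowers the THC levels of the members by itself, so the counts without it are descriptions and no test of THC. Median depth was lower in the male THC group than with vehicle, and its part in these values was not tested. The test of the difference between sexes called 0 members in the Amy, where 0.00590% of 16956 genes were called, with Ankrd63 at a log2 difference of -0.66 (edgeR adjusted p = 0.288) and Sh3rf2 at -1.42 (adjusted p = 0.460), 1 member at an unadjusted p below 0.05 (6.6% of all genes in that direction) and 0 members called by DESeq2. With library FTL_352 left out, 7 members had an unadjusted p below 0.05 for that difference, all negative, beside 7.4% of all genes, and 0 were called, Ppp1r1b at -1.64 (edgeR adjusted p = 0.121). Leaving out the male THC library that was highest in the members moves this difference down by itself, so that count is a description and no test of a sex difference.

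In the male NAc all 9 members had a higher median level with THC, and 0 passed the adjusted test. Ppp1r1b ran from 751 to 1183 CPM with vehicle (median 1105) and from 1105 to 1710 CPM with THC (median 1378). Ankrd63 ran from 124 to 207 CPM (median 186) and from 192 to 256 CPM (median 225). Sh3rf2 ran from 9.56 to 20.2 CPM (median 16.5) and from 16.4 to 29.4 CPM (median 22.3). The groups overlapped in every member. Log2 fold changes were 0.39 (SE 0.13, edgeR adjusted p = 0.215) for Ppp1r1b, 0.31 (SE 0.11) for Ankrd63 and 0.48 (SE 0.17) for Sh3rf2, and over the 9 they lay between 0.25 and 0.48 with a median of 0.34, where all genes tested had a median of 0.00.

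Unadjusted p was below 0.05 for 8 of the 9 in the male NAc, where 8.1% of all genes tested were higher and 8.55% lower at that level, and 0 genes were called by edgeR and 20 by DESeq2, none of them a member. Without vehicle library FTL_325 the count was 6 of 9, beside 5.94% of all genes higher, and Ppp1r1b had a log2 fold change of 0.31 (edgeR adjusted p = 0.405). Without THC library FTL_331 it was also 6 of 9, beside 5.87%, with Ppp1r1b at 0.32 (edgeR adjusted p = 0.413). Of other lists, 16 of 23 DARPP-32 pathway genes, 5 of 8 other medium spiny neuron genes, 4 of 7 direct and 4 of 5 indirect pathway genes were higher at an unadjusted p below 0.05, with medians of 0.21, 0.30, 0.33 and 0.36 and 0 called. Cortical markers were lower in 4 of 4 tested (median -0.90), with a summed level of 61.4 to 150.03 CPM with vehicle and 46.3 to 76.3 CPM with THC, and oligodendrocyte markers in 6 of 6 (median -0.20), with sums of 3519 to 5915 CPM and 3188 to 4991 CPM. Vehicle library FTL_325 had the highest cholinergic sum of the NAc, at 140 CPM against a median of 80.2 CPM. THC library FTL_331 had the lowest central amygdala sum, at 33.4 CPM against a median of 60.2 CPM. The part of these cells was not tested.

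Female NAc libraries showed no such shift, with log2 fold changes of the members between -0.12 and 0.09. The difference between the sexes itself, tested as an interaction, called 0 members by edgeR or DESeq2 and 0% of 16773 genes, with 4 members at an unadjusted p below 0.05, beside 5.13% of all genes in that direction. Sh3rf2 had the largest of these differences, 0.60 (edgeR adjusted p = 0.385). With vehicle library FTL_325 or THC library FTL_331 left out, 1 member had an unadjusted p below 0.05.

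**Figure D5:**
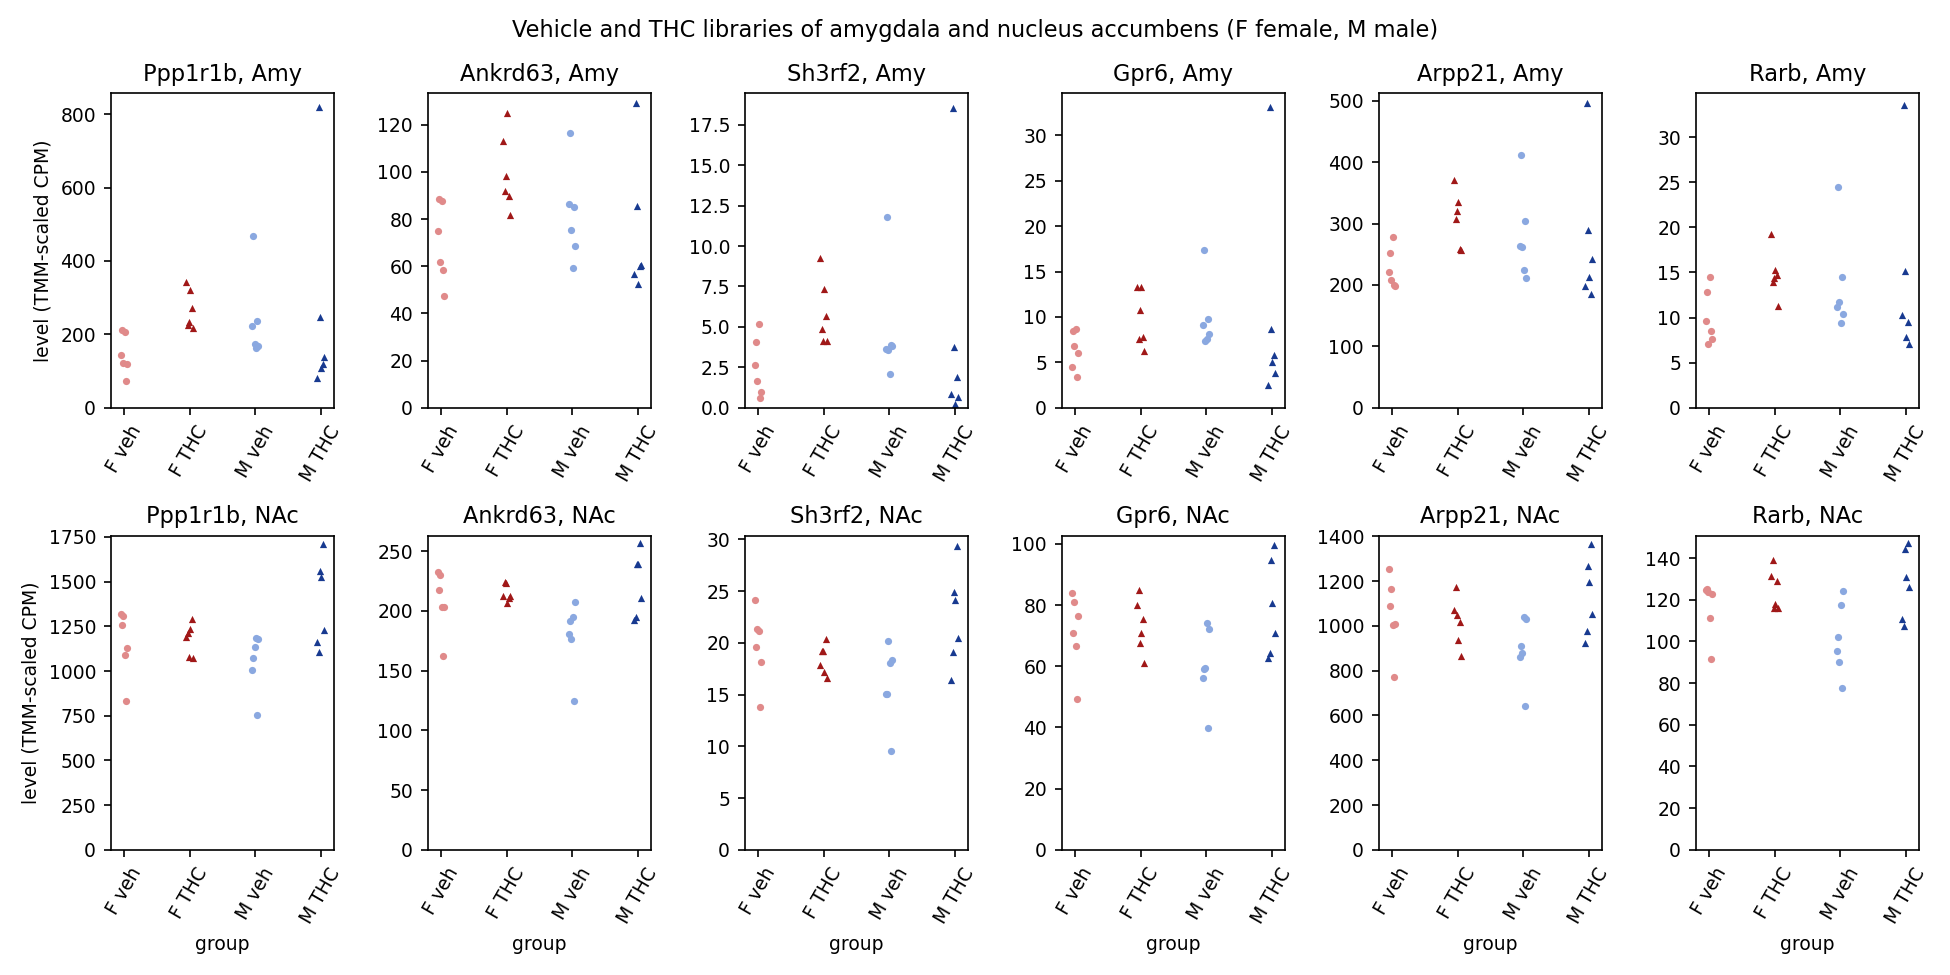
Levels in CPM of members in the 4 groups of the Amy and the 4 of the NAc, with 1 point a library. Ppp1r1b in the female Amy as labelled runs from 73.5 to 212 CPM and from 217 to 342.3 CPM, FTL_344 and FTL_356 are shown by label, and library FTL_352 lies alone at 819 CPM in the male Amy.

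No member was called in the female DMS. Sh3rf2 ran from 76.49 to 112 CPM with vehicle (median 80.5) and from 60.4 to 76.46 CPM with THC (median 69.3), and all 6 THC libraries lay below all vehicle libraries, by a narrow gap, as for 0.386% of all genes. The log2 fold change was -0.35 (SE 0.09, edgeR adjusted p = 0.280), and in DESeq2 the adjusted p was 0.0340 with the size below the threshold. Rasd2 (-0.11) and Rasgrp2 (-0.15) were the other members at an unadjusted p below 0.05 (edgeR adjusted p = 0.478 and 0.474), where 3.73% of all genes were higher and 5.17% lower at that level. In males Sh3rf2 ran from 51.2 to 72.0 CPM with vehicle and 64.1 to 67.8 CPM with THC, a log2 fold change of 0.05. The interaction of sex and treatment called 0 members and 0% of 16605 genes in the DMS, with Sh3rf2 at 0.41 (edgeR adjusted p = 0.699), the only member at an unadjusted p below 0.05, and DESeq2 also called 0 members.

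In the female VTA, Ppp1r1b ran from 47.2 to 65.1 CPM with vehicle (mean 55.8, SD 6.13, n = 6) and from 38.8 to 56.4 CPM with THC (mean 45.9, SD 6.81, n = 6), with 4 of 6 THC libraries below all vehicle libraries. Its log2 fold change was -0.28 (edgeR adjusted p = 0.512), with an unadjusted p below 0.05, as for 4.38% of all genes in that direction. In the female PFC, Gpr6 had a log2 fold change of -0.84 and Serpina9 of -0.39, and without vehicle library FTL_264 these were -0.05 and 0.21. With both sexes fitted together, 0 members and 0% of all genes were called by edgeR in each region (16230 genes for the PFC, 16366 for the DMS, 16494 for the NAc, 16653 for the Amy and 16540 for the VTA). In those fits 3 members in the NAc were higher and 1 in the VTA lower at an unadjusted p below 0.05, beside 5.6% and 5.08% of all genes, and DESeq2 called 0 members. The interaction also called 0 members and 0% of genes in the PFC (16451 tested) and in the VTA (16881 tested), with 0 members at an unadjusted p below 0.05 in edgeR and 0 called by DESeq2.

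Between the sexes, 0 members passed both thresholds in any region by edgeR or DESeq2. Of all genes tested, 0.240% were called for the PFC (39 genes, or 17 without FTL_264) and 2.64% for the DMS (432 genes, or 241 without FTL_301 and 768 without FTL_285). The share was 0.243% for the NAc, 0.0120% for the Amy (2 genes, or 14 without FTL_344 and FTL_356) and 0.109% for the VTA. In the same order of regions, members at an unadjusted p below 0.05 numbered 1, 5, 0, 1 and 1. At that unadjusted level stood 16.3%, 27.8%, 16.6%, 6% and 7.16% of all genes. In the DMS all 9 were lower in males, with a median log2 difference of -0.11 against 0.00 for all genes. Male library FTL_301, the lowest in all 9, held the highest central amygdala marker sum of the DMS, at 61.0 CPM against a median of 13.8 CPM. The part of those cells was not tested. Rasd2 ran from 820.4 to 1077 CPM in 12 females (median 921) and from 587 to 935 CPM in 12 males (median 810), a log2 difference of -0.21 (SE 0.05, adjusted p = 0.0155). Sh3rf2 ran from 60.4 to 112 CPM (median 76.5) and from 51.2 to 72.0 CPM (median 65.4), a log2 difference of -0.25 (SE 0.07, adjusted p = 0.0345). These 2 members were below the size threshold, and 6.05% of all genes had an adjusted p below 0.05 in that direction. Without male library FTL_301 the values were -0.17 for Rasd2 (adjusted p = 0.0109) and -0.22 for Sh3rf2 (adjusted p = 0.0605), with 4 members at an unadjusted p below 0.05. Without female library FTL_285 all 9 were at that level, beside 15.2% of all genes lower in males, and Rasd2 (-0.22, adjusted p = 0.0126), Sh3rf2 (-0.25, adjusted p = 0.0328), Rarb (-0.17), Gpr6 (-0.16) and Ankrd63 (-0.11) had an adjusted p below 0.05, with 0 called. FTL_285 was the lowest female DMS library in Ppp1r1b, Ankrd63, Serpina9, Gpr6, Arpp21 and Rarb. It was left out after seeing the data, which raises the female levels of these genes by itself, so the count without it is a description.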

How the data were processed

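RNA from brain punches of 119 mouse samples was measured by polyA-selected sequencing. Per the submitters' processing notes, reads were trimmed with cutadapt 2.9, aligned to mm10 with STAR 2.7.3a and quantified with RSEM 1.3.1, and the deposited values are expected counts per gene symbol made by the authors, not normalized, in 2 tables (PFC and DMS in the first, NAc, Amy and VTA in the second). The annotation release is not stated. Of the columns of per-sample values, 0 were left unused.

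Expected counts were rounded to whole numbers. Levels were TMM-scaled CPM over all 119 libraries (edgeR 4.0.16, limma 3.58.1, R 4.3.3), and 2 counts were added on the log scale. Each comparison was fitted over the whole table with the edgeR quasi-likelihood F test (filterByExpr, TMM, robust), p-values were adjusted over all genes tested by the Benjamini-Hochberg method, and genes were called at an adjusted p below 0.05 and a log2 fold change of 0.4 or more in size. Alternatives were DESeq2 1.42.0, its size factors in edgeR, no filter, library totals, joint fits of groups and fits without single libraries. The fits were tested on simulated data. By the methods of the study the regions were punched from the same mice, but the labels tie no library to a mouse, and regions were compared without pairing.

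Named genes were the 9 members in every comparison, listed genes that were called and otherwise up to 4 of a list with the smallest p, and the 5 most alike genes by Pearson correlation over all libraries and over residuals from group means in the Amy and PFC, with 1 for each member over the 20 group means. One of the most alike genes is not reported here. The members and the lists were chosen with earlier results of these data known. Exon lengths came from the GENCODE vM21 annotation of the same build, with length as the union of exons. Coordinates of the start regions came with their RefSeq entries. Behavioral data were not used here.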

Additional observations from a re-analysis of the deposited data

Results flagged for a closer look

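Of 180 sets of 6 or fewer libraries (9 genes in 20 groups), 32 held a library that lay far from the others of its group (17.8%), where chance gives about 1 in 20. Male THC Amy library FTL_352 was far above the other libraries of its group in 7 genes: Ppp1r1b at 819 CPM, Sh3rf2 at 18.5 CPM, Gpr6 at 33.1 CPM, Rasd2 at 178 CPM, Arpp21 at 496 CPM, Rarb at 33.5 CPM and Rasgrp2 at 76.4 CPM. Female vehicle PFC library FTL_264 was far above its group in 6 genes: Sh3rf2 at 2.95 CPM, Serpina9 at 4.59 CPM, Gpr6 at 6.57 CPM, Rasd2 at 85.1 CPM, Rarb at 13.6 CPM and Rasgrp2 at 20.9 CPM. Male vehicle Amy library FTL_346 was far above its group in 5 genes: Ppp1r1b at 467 CPM, Sh3rf2 at 11.8 CPM, Serpina9 at 2.66 CPM, Gpr6 at 17.4 CPM and Rarb at 24.4 CPM.

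Female VTA library FTL_358 was far above its group in Sh3rf2 at 0.764 CPM, Gpr6 at 4.94 CPM and Rasd2 at 86.5 CPM. Male vehicle VTA library FTL_371, the library with the fewest counts, was far above its group in Ankrd63 at 1.49 CPM and Arpp21 at 100.6 CPM. Female vehicle DMS library FTL_285 was far below its group in Ppp1r1b at 2467 CPM, Serpina9 at 55.6 CPM and Gpr6 at 94.8 CPM. Female THC PFC library FTL_272 was far above its group in Ppp1r1b at 189 CPM and far below it in Arpp21 at 297.9 CPM. Single genes were flagged by their distance from the group in PFC library FTL_279 (Ppp1r1b at 132 CPM), PFC library FTL_281 (Ankrd63 at 31.9 CPM), VTA library FTL_374 (Sh3rf2 at 0.205 CPM) and male vehicle NAc library FTL_325 (Ankrd63 at 124 CPM, the lowest).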

How the results depend on the processing

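Counts of called genes and members moved with the tool and with single libraries, and the cause was not tested. Of 983 log2 fold changes of members under an alternative, 913 kept their direction and their side of the threshold, 52 changed sign, 12 lost a call and 6 gained one. The 9 genes' mean CPM moved by at most 7.58% without TMM and 1.14% with DESeq2 size factors. Settings that left out libraries FTL_264, FTL_272, FTL_285, FTL_301, FTL_313, FTL_325, FTL_331, FTL_346 or FTL_352, or grouped FTL_344 and FTL_356 by transcripts, were chosen after seeing the data. Depth as low as 3090998 counts limits what can be seen of Sh3rf2, Ankrd63 and Serpina9 in the VTA, where they were at or near 0. No paired analysis was made because the labels tie no library to a mouse. In each region 1 male vehicle library had a low Y-linked sum (67.5 to 96.6 CPM, the others at least 133 CPM), and the mice of the other libraries were not matched. DMS against NAc called the same 8 members without libraries FTL_285, FTL_301, FTL_313 and FTL_325.

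With DESeq2, genes called with THC numbered 1 in the female PFC (0 in edgeR), 22 in the female DMS (2), 20 in the male NAc (0), 546 in the female Amy (1.57% of genes tested in edgeR, with 4 members against 1), 3 for female VTA (0) and 1 for male VTA libraries (0), and 2 in the Amy of both sexes (0). For the interaction DESeq2 called 3 genes in the DMS (0) and 21 in the Amy (1), and between the sexes 65 for the NAc (40), 10 for the Amy (2) and 31 for the VTA (18). With no filter, 4 genes were called in the female DMS, 1 in the female VTA and 2 for the interaction in the Amy. When the 4 groups of a region were fitted together, 5 genes were called in the female DMS and 126 genes and 0 members in the female Amy.

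Over 12 fits that each left out 1 library of the female Amy, 0 to 3 members and 56 to 2.9e2 genes (rounded) were called, Serpina9 ranged from -0.12 to 0.12 on the log2 scale and Rasgrp2 from -0.0714 to 0.012. Genes called were 6 in the female DMS without library FTL_285, 0 for the interaction and 1 between the sexes in the Amy without library FTL_352, 17 between the sexes in the PFC without library FTL_264, and 241 and 768 between the sexes in the DMS without libraries FTL_301 and FTL_285. Without libraries FTL_344 and FTL_356, 0 genes were called for the interaction and 14 between the sexes in the Amy, and without FTL_344, FTL_352 and FTL_356, 0 for the interaction. With FTL_344 and FTL_356 grouped by transcripts, 132 genes and 0 members were called in the female Amy, 0 genes for the interaction and 14 between the sexes, with Serpina9 at 0.2828 and Arpp21 at 0.4306 in the female Amy and Sh3rf2 at 0.0086 and Gpr6 at 0.0272 in the male Amy.

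Log2 fold changes that changed sign were small or rested on a library named in the report. In the female PFC without library FTL_272 and without FTL_264 they were -0.20 and 0.21 for Ppp1r1b, -0.43 and 0.21 for Serpina9, -0.0747 and 0.05 for Rasd2, 0.0555 and 0.0136 for Arpp21, -0.0045 and 0.12 for Rarb and 0.0661 and -0.0236 for Ankrd63. Without library FTL_285, the female DMS gave -0.0098 for Serpina9, -0.0365 for Arpp21 and -0.0032 for Rarb, and the DMS interaction 0.0323 for Arpp21 and 0.0135 for Rarb. Without library FTL_301, the male DMS gave -0.0468 for Ppp1r1b, -0.0604 for Gpr6, -0.0493 for Rasd2, -0.045 for Rarb and -0.0469 for Rasgrp2. In the male Amy, without library FTL_352 and without FTL_356, they were -0.78 and 0.21 for Ppp1r1b, -1.66 and 0.0742 for Sh3rf2, -0.95 and 0.16 for Gpr6, -0.24 and 0.10 for Rasd2, -0.46 and 0.17 for Rarb and -0.39 and 0.0789 for Rasgrp2. Without FTL_346 they were 0.3897 for Ppp1r1b, 0.3679 for Sh3rf2, 0.2308 for Gpr6, 0.1762 for Rasd2, 0.0969 for Arpp21 (-0.3095 without FTL_352) and 0.2853 for Rarb, and without FTL_346 and FTL_352 -0.4719 for Ppp1r1b, -0.1336 for Rasd2 and -0.1973 for Rarb. Without FTL_352 and FTL_356, they were -0.77 for Ppp1r1b, -0.20 for Serpina9, -0.28 for Rasd2 and -0.35 for Rarb. Over 11 fits that left out 1 library of the male VTA, Serpina9 ranged from -0.34 to 0.0651, Rarb from -0.028 to 0.10, Arpp21 from -0.15 to 0.17, Gpr6 from -0.0555 to 0.36 and Rasgrp2 from -0.01 to 0.0804.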
